A study of Mus musculus with 2 samples.

Results

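Claudins, cadherins, connexins, keratins and their partner proteins at cell junctions were followed in mouse lung 12 weeks after a carcinogen protocol, in wild-type mice and in Rosa26-Foxm1 mice. The group was chosen by gene symbol, as claudins, cadherins, alpha, beta and gamma connexins, keratins, zonula occludens scaffolds (Tjp), desmogleins, desmocollins and plakophilins, with Ocln, Dsp, Epcam and Vim. The endothelial genes Cldn5 and Cdh5 and the club cell gene Cldn10 were left out by rule. It comprised 92 genes of 13840 that a probe named alone, and Dsp was not analysed here. Values were available for 2 arrays, 1 per genotype, each holding the pooled RNA of 3 left lungs. Wild-type animals are labelled as FVB/N males. No sex or strain is labelled for the Rosa26-Foxm1 mice, which are transgenic for the forkhead transcription factor Foxm1 and are called transgenic below. Mice of both genotypes had received 3-methylcholanthrene, a carcinogen, at 15 µg per g of body weight and then 6 weekly injections of the tumour promoter butylated hydroxytoluene (150 µg per g first, 200 µg per g afterwards), so no array shows untreated lung. Rosa26 is a locus active in most cell types, and neither the cells that express the transgene nor the age of the mice is given in the sources used here.

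Epithelial cells are held together by a belt of tight junctions, adherens junctions and desmosomes. Claudins and occludin are the membrane proteins of the tight junction and set which ions and solutes pass between cells, and Tjp proteins tie them to actin. Classical cadherins bind the same cadherin on the next cell and are anchored to actin by catenins, whereas desmosomal cadherins are anchored by plakophilins and desmoplakin to keratin filaments. Connexins form gap junction channels that pass ions and small molecules from cell to cell. Keratin filaments are built from pairs of a type I and a type II keratin, and vimentin is the filament protein of mesenchymal, endothelial and immune cells. In lung, simple keratins and E-cadherin mark the whole epithelium, Cldn18 is typical of the alveolar epithelium, and vascular connexins mark endothelium and smooth muscle.

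The values are probe intensities after quantile normalisation between both arrays, in arbitrary units. An intensity below 1.00, the median of an array, was raised to that floor, and a gene exceeding the floor on either array counts as measured. With 1 array per genotype there is no spread between replicates, no test between the genotypes was possible, and precision is limited by the number of arrays. The only error available was the probe SD, the typical distance of the log2 difference of 1 probe from the value of its gene. It was 0.31 over 317 probe pairs, 0.38 among the dimmer and 0.23 among the brighter, and it holds no difference between mice. The gap between probes of the same gene is typically larger than the probe SD. All differences are Rosa26-Foxm1 minus wild type on the log2 scale. A size of 1.5-fold (0.58) was used to count genes. Where an array was below the floor, the difference is a lower bound on its size and is written as "at least". Pearson's r of the deposited log2 values over all 33012 probes was 0.96. The lung label was borne out by high alveolar type II and club cell markers on both arrays, with normalised intensities of 1228 and 859 for Sftpc and 2544 and 1767 for Scgb1a1 in wild-type lung and transgenic lung. Foxm1 itself was near the floor, at 1.13 and 1.23, and its probe does not check the genotype.

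Of the 92 genes, 47 were measured. Of these, 35 were above the floor on both arrays, 5 in wild-type lung only and 7 in transgenic lung only. The other 45 were below the floor on both arrays. At the 1.5-fold size, 2 of the 47 genes were higher in transgenic lung, Cldn7 and Tjp3, which is 4.26% against a background of 7.1% of all 9518 measured genes. Lower by at least 1.5-fold were 7 genes, which is 14.9% against a background of 8.46%. These were the connexins Gja1, Gja4, Gja5 and Gjc1, with Krt79, Cldn12 and Cdh12. No gene was counted as 2-fold apart, against backgrounds of 1.99% higher and 1.51% lower. The differences of 12 genes are bounds, so these counts are minimums, and with no floor 8 genes passed 1.5-fold upward and 9 downward, and 2-fold was passed by 5 upward and 1 downward. The median log2 difference of the 47 genes was -0.03 beside -0.06 for all measured genes, and 26 of 47 were below 0 (55.3% against 56%) and 21 above (44.7% against 43.9%). By more than the probe SD, 14 genes were higher and 16 lower, 29.8% and 34% against backgrounds of 18.8% and 24%. Of the 35 genes above the floor on both arrays, 2 were at least 1.5-fold higher and 5 lower, 5.71% and 14.3% against backgrounds of 6.02% and 7.7%. The group as a whole therefore had a middle close to that of all genes. Family medians ran from 0.33 for tight junction genes to -0.52 for connexins, but the families overlapped. Their quartiles were -0.43 to 0.40 and -0.69 to 0.08. Within tight junction genes, the claudins had a median of 0.34 and the 3 scaffold and occludin genes a median of -0.47.

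**Figure D1:**
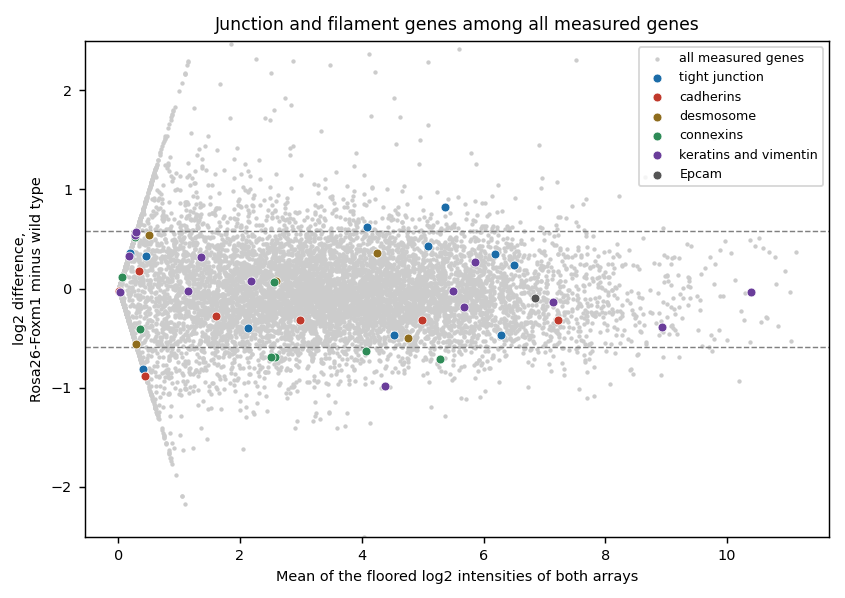
Log2 difference between the 2 arrays (Rosa26-Foxm1 minus wild type, vertical axis) against the mean floored log2 intensity (horizontal axis), with 1 point per measured gene. Grey points are all 9518 measured genes, of which 21 lie outside the plotted range of 2.5 either side of 0, coloured points are the 47 measured junction and filament genes by family, and dashed lines mark 1.5-fold. The coloured points lie inside the cloud of all genes, with Cldn7 highest at 0.82 and Krt79 lowest at -0.98.

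The promoter sequences of 6 genes are shown, Cldn3, Cldn4 and Cldn7 with higher and Gja1, Gja4 and Gja5 with lower values in transgenic lung. They are a choice from the claudins and connexins and do not stand for their families. Cldn3 and Cldn4 were short of 1.5-fold, and Tjp3 and Gjc1, which were past it, are not shown. RefSeq starts were matched for 59 of the 92 genes, and each line holds the 250 bases before the start in GRCm38.p6, 5′ to 3′ on the gene's strand. Capitals mark matches, on either strand, to any of 5 motifs, namely the TATA box TATAAA, the forkhead core TAAACA, the E-box CAGGTG that Snail and Zeb factors bind, the GC box GGGCGG and the AP-1 site TGANTCA.
Cldn3 (chr5:134985964-134986213, plus strand): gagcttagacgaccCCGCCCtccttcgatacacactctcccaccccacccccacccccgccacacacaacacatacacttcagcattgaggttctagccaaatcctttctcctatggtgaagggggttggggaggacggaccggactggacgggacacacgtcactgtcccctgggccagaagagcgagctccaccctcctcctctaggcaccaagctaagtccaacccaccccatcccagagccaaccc
Cldn4 (chr5:134946935-134947184, minus strand): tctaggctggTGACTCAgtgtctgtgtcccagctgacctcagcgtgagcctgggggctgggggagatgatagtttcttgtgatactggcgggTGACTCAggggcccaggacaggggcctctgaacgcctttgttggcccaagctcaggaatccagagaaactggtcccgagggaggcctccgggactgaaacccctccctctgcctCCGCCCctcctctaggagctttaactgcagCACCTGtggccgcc
Cldn7 (chr11:69964529-69964778, plus strand): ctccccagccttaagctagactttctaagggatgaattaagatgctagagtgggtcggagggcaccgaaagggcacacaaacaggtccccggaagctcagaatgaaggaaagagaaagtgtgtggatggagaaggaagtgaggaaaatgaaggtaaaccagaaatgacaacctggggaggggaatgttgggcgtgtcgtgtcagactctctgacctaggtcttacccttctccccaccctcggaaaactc
Gja1 (chr10:56377050-56377299, plus strand): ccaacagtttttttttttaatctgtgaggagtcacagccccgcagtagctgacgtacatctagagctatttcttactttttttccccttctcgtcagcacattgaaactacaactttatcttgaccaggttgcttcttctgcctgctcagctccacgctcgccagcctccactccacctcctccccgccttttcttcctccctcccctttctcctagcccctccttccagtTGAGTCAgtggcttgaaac
Gja4 (chr4:127314040-127314289, minus strand): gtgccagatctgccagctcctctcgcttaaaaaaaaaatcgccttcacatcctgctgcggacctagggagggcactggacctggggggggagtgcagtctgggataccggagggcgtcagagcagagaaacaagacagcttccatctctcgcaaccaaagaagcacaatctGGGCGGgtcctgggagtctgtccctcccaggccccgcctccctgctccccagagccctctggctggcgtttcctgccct
Gja5 (chr3:97032152-97032401, plus strand): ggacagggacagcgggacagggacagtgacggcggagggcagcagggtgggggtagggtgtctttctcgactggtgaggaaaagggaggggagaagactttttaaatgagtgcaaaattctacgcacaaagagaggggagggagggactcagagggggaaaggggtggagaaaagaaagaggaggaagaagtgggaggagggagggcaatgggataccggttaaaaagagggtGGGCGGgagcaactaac

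None of the 6 windows held TATAAA or TAAACA, letters that stood in 12.4% and 12.0% of the 32851 RefSeq windows of the same length. The Cldn4 window held a GC box, a CAGGTG match 14 bases before the start and a pair of AP-1 matches, at 240 and 158 bases before the start. A GC box was also found for Cldn3, Gja4 and Gja5 (32.7% of all windows), and an AP-1 match 19 bases before the start for Gja1 (6.75% of all windows). The window printed for Cldn7, that of the first of 2 listed starts, held no match to the 5 motifs. The CAGGTG letters stood in 17.2% of all windows. No motif was thus shared by all members of either set, and a match is only a run of letters.

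**Figure D2:**
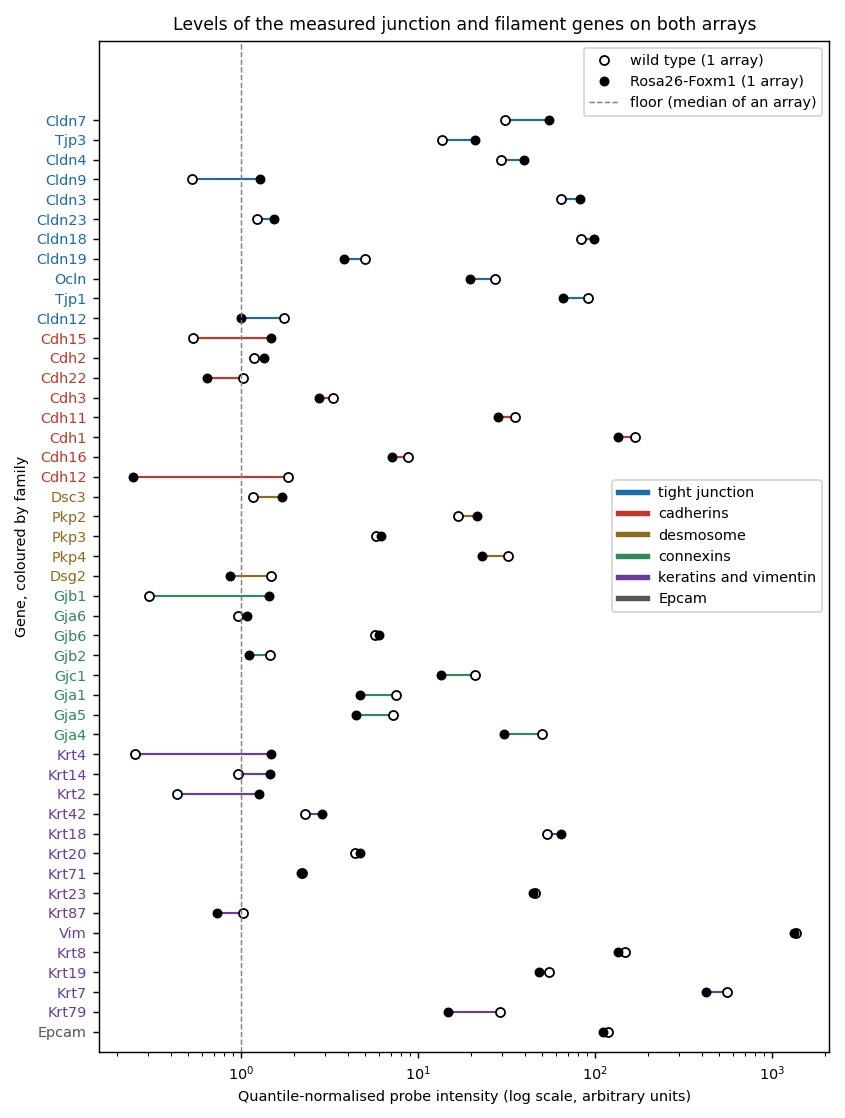
Quantile-normalised probe intensity on a log axis for each of the 47 measured genes, grouped and coloured by family, with wild type as open and Rosa26-Foxm1 as filled circles, 1 array each, and the floor of 1.00 as a dashed line. The filled circle lies to the right for Cldn7, Tjp3, Cldn4, Cldn3 and Cldn18 and to the left for Gja4, Gja5, Gja1, Gjc1 and Krt79, while those of Vim, Krt8 and Krt23 almost cover the open circle.

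Among tight junction genes, Cldn7 and the scaffold Tjp3 were past 1.5-fold in the higher direction and the dim Cldn12 in the lower. Cldn4, Cldn3 and Cldn18 lay above 0 and occludin and Tjp1 below 0, all short of 1.5-fold. Cldn7, a claudin of the lateral membrane of many simple epithelia, had 31.0 in wild-type lung and 54.9 in transgenic lung, a difference of 0.82 (1.77-fold). Cldn4, which tightens the barrier to sodium and is known to be raised in injured alveolar epithelium, had 29.3 and 39.6 (0.43). Cldn3, another claudin of the alveolar epithelium, had 64.4 and 82.0 (0.35). Cldn3 and Cldn4 are next to each other on chromosome 5, with no protein-coding gene between them. Cldn18, the main claudin of alveolar cells, had 83.4 and 98.3, and its difference of 0.24 was about as large as the probe SD of brighter pairs (0.23).

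Tjp3, a zonula occludens scaffold of epithelial cells, had 13.7 in wild-type lung and 21.0 in transgenic lung (0.62, 1.53-fold). The values of its relative Tjp1, which is found in epithelium, endothelium and fibroblasts, were 91.6 and 66.1 (-0.47). Occludin, Ocln, had 27.1 and 19.6 (-0.47). The scaffolds Tjp1 and Tjp3 thus differed in opposite directions, each by more than the probe SD.

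The remaining claudins were dim. Cldn19, known from kidney, had 5.01 in wild-type lung and 3.82 in transgenic lung (-0.39), and Cldn23 had 1.23 and 1.54 (0.33). Cldn12 was 1.76 in wild-type lung and at 0.999 just below the floor in transgenic lung, at least 1.75-fold lower. Cldn9 was at 0.526 in wild-type lung, under the floor, and at 1.29 in transgenic lung (at least 0.36 on the log2 scale). In all, 11 of 20 tight junction genes were measured, with 2 at least 1.5-fold higher, 1 lower and 8 between, of which Cldn9 is a bound (1.29 with no floor). The backgrounds over all measured genes were 7.1% higher and 8.46% lower. Cldn1, Cldn2, Cldn6, Cldn8, Cldn11, Cldn13, Cldn14, Cldn16 and Cldn17 were below the floor on both arrays. The family's median of 0.33 lay between 0.31 and 0.33 with median scaling, the deposited intensities or loess. Of the genes left out by rule, the club cell gene Cldn10 differed by 0.36, and the endothelial genes Cldn5 (940 against 629) and Cdh5 by -0.58 and -0.94.

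Partners of the tight junction were nearer to 0. Of 14 measured genes of that list, 1 was at least 1.5-fold higher (7.14%, background 7.1%) and none lower (background 8.46%). Below 0 were 11 (background 56%), and the median was -0.16. Jam2, a junctional adhesion molecule of endothelium, was at 1.74 in wild-type lung and 2.67 in transgenic lung (0.62, but below 1.5-fold with median scaling). Its epithelial relative F11r differed by 0.12. Among the lower genes of the list were Mpdz (-0.48), a multi-domain scaffold of the tight junction, and Marveld2 (-0.42), the tricellular junction protein related to occludin.

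**Figure D3:**
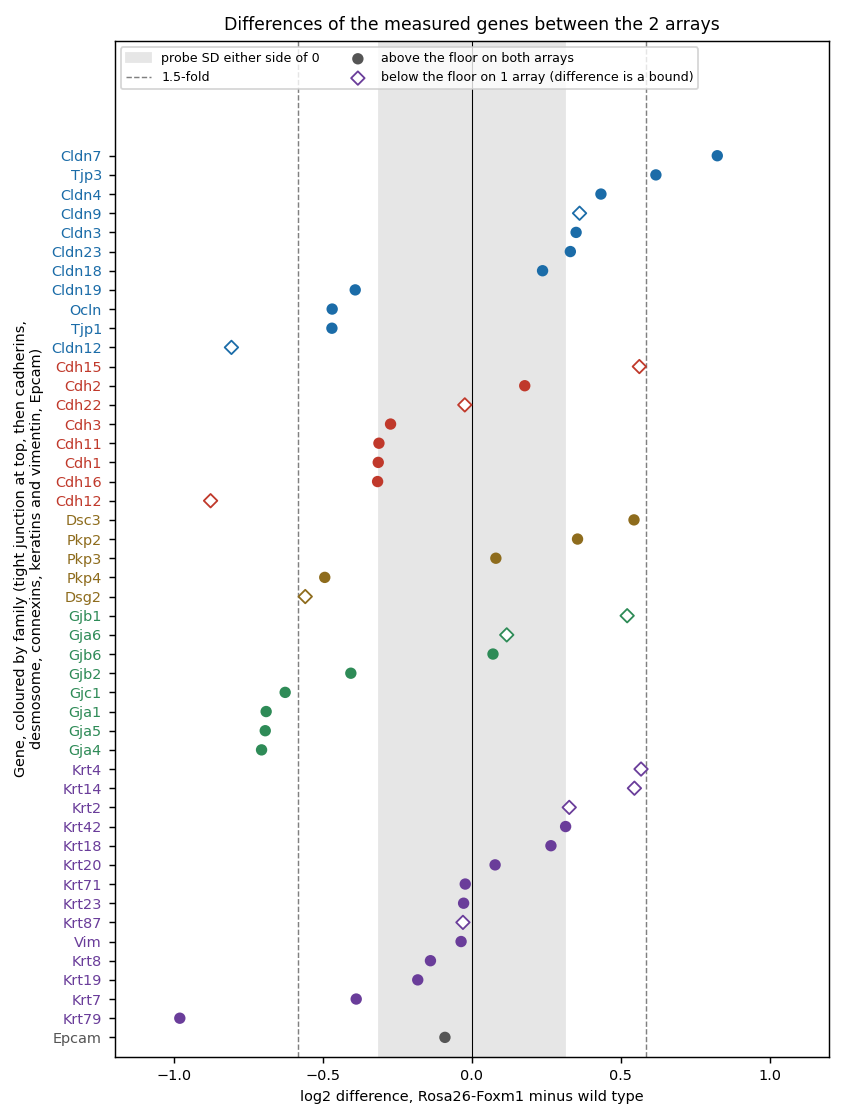
Log2 difference (Rosa26-Foxm1 minus wild type, horizontal axis) for the 47 measured genes, coloured by family and ordered within it. Circles are genes above the floor on both arrays, open diamonds are genes below it on 1 array, whose difference is a bound, the grey band is the probe SD of 0.31 either side of 0 and dashed lines mark 1.5-fold. The 4 connexins Gja4, Gja5, Gja1 and Gjc1 lie together between -0.71 and -0.63. Keratins are divided, with Krt8, Krt18, Krt19, Krt20, Krt23, Krt71 and Krt87 inside the band. Krt79, Krt7, Krt4, Krt14 and Krt2 lie outside it and Krt42 at its edge.

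Connexins had the lowest median of the families, -0.52 over 8 measured of 12 genes, 4 of them past 1.5-fold in the lower direction and 0 counted in the other, beside backgrounds of 8.46% and 7.1% of all measured genes. Gjb1 is a bound and would count as higher with no floor (2.25). The count of lower connexins was 3 with loess (background 7.65%) and 2 with the floor at the 75th percentile (background 5.26%). At that floor Gja5 was not measured. Gja4, a connexin of arterial endothelium, had 50.04 in wild-type lung and 30.7 in transgenic lung (-0.71, 1.63-fold lower). Gja5, found in arterial endothelium and in atrial muscle, had 7.24 and 4.47 (-0.69, 1.62-fold lower). Both are genes of blood vessels, and both were lower by about the same factor.

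Gja1, the most widespread connexin, which couples alveolar cells, smooth muscle and fibroblasts, had 7.55 and 4.68 (-0.69, 1.61-fold lower). With the floor at the 75th percentile its difference was -0.02, because its wild-type value then stood just above the floor. Gjc1, a connexin of smooth muscle and the conduction system, had 20.9 and 13.6 (-0.63, 1.54-fold lower). It was at -0.58 with loess, just short of 1.5-fold.

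The beta connexins, which are mainly epithelial, lay on both sides of 0. Gjb2 had 1.47 and 1.11, close to the floor (-0.41). Its neighbour on chromosome 14, Gjb6, had 5.75 and 6.04 (0.07). Gjb1, the liver-type connexin, was at 0.302 in wild-type lung, under the floor, and at 1.44 in transgenic lung (at least 0.52). The alpha connexin Gja6 was 0.957, below the floor, and 1.09 (at least 0.12). Gja3, Gja10, Gjb5 and Gjc3 were below the floor on both arrays. Whether the direction of alpha and gamma connexins differs from that of beta connexins was not tested.

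Endothelial markers were lower beside these connexins. Of 10 genes of that list 5 were at least 1.5-fold lower (background 8.46%), 9 were below 0 (background 56%), the median was -0.61 and the summed intensity was 2161 in wild-type lung and 1388 in transgenic lung. The list includes Cldn5 and Cdh5, given above as left out by rule. Much of the sum was Cldn5 (940 and 629) and Kdr (458 and 260). With median scaling 3 of the 10 were at least 1.5-fold lower and the median was -0.45. Pecam1 (-1.08) and Tie1 (-0.93), both above the floor on both arrays, were among the lowest. At the other end were Vwf, higher at 1.56 in wild-type lung and 2.19 in transgenic lung (0.49), Ramp2 (-0.08) and Esam (-0.24). The 4 measured smooth muscle markers had a median of -0.46, and none was at least 1.5-fold lower (background 8.46%). Their list had a summed intensity of 184.8 against 147.8, with Cnn1 below the floor. The 7 measured cardiac muscle markers, from the muscle sleeve of pulmonary veins, had a median of -0.20 and a summed intensity of 931 against 671, with Ryr2 below the floor. Much of that sum was Myh6, with 377 in wild-type lung and 194 in transgenic lung (-0.96). Above 0 were 3 of the 7, Nppa (0.40), Sln (0.32) and Tnni3 (0.12). The part of these cells in the connexin values was not tested. In RNA of whole lung, fewer cells of a type and less RNA per cell cannot be told apart.

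Among the genes listed as connexin partners, caveolin Cav1, abundant in alveolar type I cells and endothelium, had 185 and 104 (-0.83). Gjd3, a delta connexin outside the chosen families, had 7.74 and 12.4 (0.68), and the pannexin Panx1, which forms channels without pairing between cells, differed by 0.17. Of 3 measured genes on this list, 1 was thus at least 1.5-fold higher (background 7.1%) and 1 lower (background 8.46%).

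The 4 brightest cadherins had differences close to the probe SD. Cdh1, which encodes E-cadherin, the adherens junction protein of all lung epithelium, had 167 in wild-type lung and 135 in transgenic lung (-0.31), about as large as the probe SD, and -0.17 with median scaling. Cdh3, P-cadherin, is the neighbour of Cdh1 on chromosome 8 and had 3.33 and 2.75 (-0.27). Cdh11, a cadherin of fibroblasts, had 35.2 and 28.4 (-0.31), and Cdh16, best known from kidney, had 8.83 and 7.09 (-0.32). These 4 genes lay within a narrow range of each other. Cdh2, N-cadherin, a marker of mesenchymal and muscle cells, was near the floor, and its probes disagreed in sign, with 1.19 and 1.34 (0.18) on the brighter and 1.29 and 0.509 (-0.36, Rosa26-Foxm1 below the floor) on the other.

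The other measured cadherins were dim on both arrays. Cdh12, known from brain, had 1.84 in wild-type lung and was below the floor at 0.244 in transgenic lung, at least 1.84-fold lower. Cdh15, M-cadherin of skeletal muscle, was at 0.533 in wild-type lung, under the floor, and at 1.48 in transgenic lung (at least 0.56), and Cdh22 was at 1.02 and 0.646, at the floor. Over 8 measured of 15 cadherins the median was -0.29, and Cdh12 was the 1 gene counted past 1.5-fold. The backgrounds were 7.1% higher and 8.46% lower. Cdh12 and Cdh15 are bounds, with differences of -2.92 and 1.47 when no floor was set, and Cdh22 then also passed 1.5-fold downward. Cdh4, Cdh6, Cdh7, Cdh17, Cdh20, Cdh24 and Cdh26 were below the floor on both arrays.

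The list of adherens junction partners holds catenins and actin-linked proteins of the cytoplasm together with nectins and Pvr, which are membrane proteins. Of its 13 measured genes, 6 were at least 1.5-fold lower and none higher, 46.2% against the background of 8.46% of all measured genes, and the median was -0.45 (-0.70 if floored at the 75th percentile). Whether this list differs from the cadherins was not tested. The count of lower genes was 6 or 7 under every alternative that was run, listed with the limits of the processing. Vinculin, Vcl, which links catenins to actin under tension, had 53.4 in wild-type lung and 23.4 in transgenic lung (-1.19, 2.28-fold lower). The actin-binding protein Lima1 had 12.8 and 6.76 (-0.92).

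Each of the 4 core catenins measured was at least 1.5-fold lower. Alpha-catenin, Ctnna1, had 30.6 in wild-type lung and 17.6 in transgenic lung (-0.80). Beta-catenin, Ctnnb1, which also carries Wnt signals to the nucleus, had 86.1 and 52.0 (-0.73). Plakoglobin, Jup, which serves both adherens junctions and desmosomes, had 32.1 and 19.7 (-0.70). The catenin that steadies cadherins at the membrane, Ctnnd1, had 30.7 and 19.1 (-0.68), while its neural relative Ctnnd2 differed by -0.30. At the other end were Eps8 (0.42), an actin-capping protein, and Nectin2 (0.21), a nectin of many cell types. Catenins and vinculin also serve the junctions of endothelium and muscle. The marker lists of those cells had medians below 0 as given above, with Vwf and 3 cardiac muscle markers above 0. The part of those cells in these values was not tested.

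Among 6 measured relatives of the cadherins, 2 were at least 1.5-fold lower (33.3%, background 8.46%) and none higher (background 7.1%), with a median of -0.30. Without a floor, or with it at the 25th percentile, 4 were at least 1.5-fold lower and the median was -0.85. Flooring at the 75th percentile gave -0.84. Protocadherin Pcdh1, a protein of airway epithelium and endothelium, had 45.2 and 24.98 (-0.85), and calsyntenin Clstn1 had 32.2 and 18.1 (-0.84). Celsr1, a planar polarity cadherin, stood at the other end with 0.15.

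**Figure D4:**
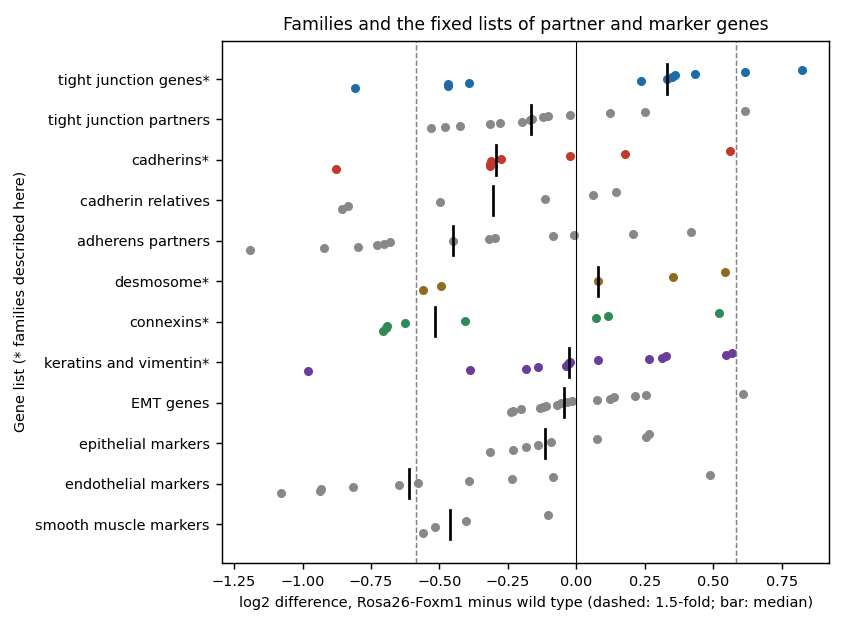
Log2 difference (Rosa26-Foxm1 minus wild type, horizontal axis) of every measured gene in the families described here and in some of the fixed lists. Families are coloured and marked with an asterisk, and lists of partner and marker genes are grey. Each has 1 row, with a black bar at the median, and dashed lines mark 1.5-fold. Epcam has no family row. The lists of desmosome, connexin and filament partners and the other marker lists are not drawn. The medians of adherens partners (-0.45) and endothelial markers (-0.61) stand to the left of that of cadherins (-0.29), and those of epithelial markers (-0.12) and genes of the epithelial to mesenchymal transition (EMT, -0.05) stay near 0. Apart from Epcam, every epithelial marker is also a point in the family rows or among the EMT genes.

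Desmosomal genes were few and scattered. Pkp2, a plakophilin of simple epithelium and heart, had 16.9 in wild-type lung and 21.6 in transgenic lung (0.35). Pkp4, which is found at adherens junctions as well, had 32.3 and 22.9 (-0.49). Pkp3, the plakophilin of most epithelia, had 5.82 and 6.16 (0.08). The desmosomal cadherins were close to the floor, with 1.18 and 1.71 for Dsc3 (0.54) and 1.48 and 0.864 for Dsg2 (at least 0.56 lower, Rosa26-Foxm1 below the floor). The median over 5 measured of 11 genes was 0.08. None was counted as 1.5-fold apart at the floor used, beside backgrounds of 7.1% higher and 8.46% lower. Dsg2 passed that size with no floor (-0.77) and with loess (-0.59), and 6 genes (Dsc1, Dsc2, Dsg1c, Dsg3, Dsg4 and Pkp1) were below the floor on both arrays. Of the listed desmosome partners, Perp, a tetraspan protein of desmosomes and a p53 target, differed by -0.53 and dystonin, Dst, by -0.14, beside Jup as given above.

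The simple keratins of lung epithelium were short of 1.5-fold, while Krt79 was lower by more. Krt8 and Krt18, the type II and type I keratins that pair in simple epithelium and are neighbours on chromosome 15, had 149 and 135 (-0.14) and 53.2 and 64.0 (0.27). Krt19, a type I keratin of airway and alveolar epithelium, had 54.6 and 48.2 (-0.18). All 3 differences were smaller than the probe SD over all pairs (0.31), but that of Krt18 exceeded the 0.23 of brighter pairs. The difference of Krt8 was 0.02 with median scaling. Krt7, a type II keratin of simple and ductal epithelium, had 556 and 425 (-0.39). Its deposited intensities were 493 and 468, and with median scaling its difference was -0.07, so its size depends on the scaling.

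Krt79, a type II keratin known from hair follicles and sebaceous ducts, had 29.2 in wild-type lung and 14.8 in transgenic lung (-0.98, 1.97-fold lower), the largest difference among the 35 genes of the group above the floor on both arrays. It lies between Krt4 and Krt8 in the keratin cluster of chromosome 15, and neither of those was lower by more than the probe SD. Krt4, a keratin of stratified mucosa, was at 0.252 in wild-type lung, under the floor, and at 1.49 in transgenic lung (at least 0.57). Krt14, a keratin of basal cells, was at 0.962, below the floor, and 1.46 (at least 0.55), and Krt2, a keratin of the upper epidermis, at 0.433 and 1.26 (at least 0.33).

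Krt23 had 45.7 and 44.8 (-0.03), and Krt20, a keratin of gut epithelium, had 4.43 and 4.67 (0.08). Krt42 had 2.29 and 2.85 (0.31), Krt71, a hair follicle keratin, 2.22 and 2.18 (-0.02), and Krt87 was at the floor with 1.02 and 0.733. Apart from Krt79, the keratins measured above the floor on both arrays were thus within 0.39 of 0. Type I keratins, 6 measured of 18, had a median of 0.17, and type II keratins, 7 measured of 14, a median of -0.03. At the floor used, no keratin was counted as 1.5-fold higher (background 7.1%), and Krt79 was the 1 counted as lower (background 8.46%). Krt4, Krt14 and Krt2 are bounds, and with no floor these 3 were past 1.5-fold higher (2.56, 0.61 and 1.54). The background at that setting was 9.61%.

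Keratins below the floor on both arrays were 19 in number and included those of basal and squamous epithelium, Krt5, Krt6a, Krt13, Krt15, Krt16 and Krt17. Of 9 named markers of basal and squamous cells, 7 were below the floor on both arrays, among them Trp63, the transcription factor of basal cells, and Sbsn was at 12.4 and 13.5 (0.12). The summed intensity over that list was 16.6 in wild-type lung and 18.5 in transgenic lung. Claudins, connexins and keratins are families of similar sequence, the sequences of the probes were not used here, and a probe may also detect a relative.

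Vimentin and the epithelial marker Epcam were nearly equal on both arrays. Vim had 1369.6 in wild-type lung and 1335 in transgenic lung (-0.04). It was at -0.24 with loess and 0.01 with median scaling, so its sign was not settled. Epcam, an adhesion protein on the surface of most epithelial cells, had 119 and 112 (-0.09), and 0.02 with median scaling. The 8 pan-epithelial markers had a median of -0.12 (0.02 with median scaling), and their summed intensity was 614 and 569. None was 1.5-fold apart, beside backgrounds of 7.1% higher and 8.46% lower. This list is not independent of the values already given. Its Epcam, Cdh1, Krt8, Krt18 and Krt19 are members of the group described here. Its Elf3, Esrp1 and Grhl2 also stand in the list of the epithelial to mesenchymal transition.

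Genes of the epithelial to mesenchymal transition were likewise close to 0. Of 16 measured, 1 was at least 1.5-fold higher (6.25%, background 7.1%) and none lower (background 8.46%), with a median of -0.05. The higher gene was Ovol2, a repressor of that transition, at 1.98 and 3.02 (0.61, and below 1.5-fold with median scaling). The transcription factors that repress Cdh1 differed by -0.13 (Snai1), -0.11 (Snai2), -0.06 (Zeb2) and -0.04 (Zeb1), each smaller than the probe SD. Fibronectin, Fn1, had 183 and 155 (-0.24), and the epithelial factor Elf3 differed by 0.25.

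Among partners of intermediate filaments, synemin, Synm, which joins vimentin or desmin filaments, had 59.2 and 34.6 (-0.77). Desmin, Des, the filament protein of muscle, had 29.7 and 20.2 (-0.56), and the nuclear lamin Lmna had 92.1 and 93.3 (0.02). Of 5 measured genes of this list, 1 was counted as at least 1.5-fold lower (20%, background 8.46%) and none as higher (background 7.1%). With no floor, 2 were lower and 1 higher.

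Markers of the other lung cell types lay on both sides of 0. The 4 alveolar type I markers measured had a median of 0.17 and a summed intensity of 867 in wild-type lung and 824 in transgenic lung. Alveolar type II markers, 6 measured, had a median of -0.30 and a summed intensity of 4784 and 4705. Sftpd (0.94) and Sftpa1 (0.51) were above 0, and 4 were below 0 (background 56%), with Slc34a2 (-0.56) and Sftpc (-0.52) lowest. The 4 club cell markers had a median of -0.53 and 5377 and 3846, and the 3 measured ciliated cell markers a median of 0.09. The 5 mesothelial markers, whose cells also carry Krt8, Krt18 and Krt19, had a median of 0.12 (-0.40 with the floor at the 75th percentile), with Msln at -0.57. The 7 measured macrophage markers had a median of 0.43 and a summed intensity of 649.6 and 1077, but the median was 0.73 with median scaling and 1.67 over genes above the floor on both arrays. They spread widely, with Gpnmb at 4.42, Mmp12 at 3.46 and Trem2 at 2.91, Chil3 at 0.43 and Mrc1 at 0.06, Adgre1 at -0.56 and Marco at least 0.75 lower. The 6 fibroblast markers had a median of -0.20 (-0.04 with median scaling) and a summed intensity of 1064 and 908. Below 0 were 5 of them (background 56%), with Pdgfra lowest at -0.88, while Lum was higher at 3.47 and 4.96 (0.52). These values stand beside those of the claudins, and the fibroblast values beside Cdh11, Tjp1 and Gja1, and the part of any cell type in them was not tested.

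**Figure D5:**
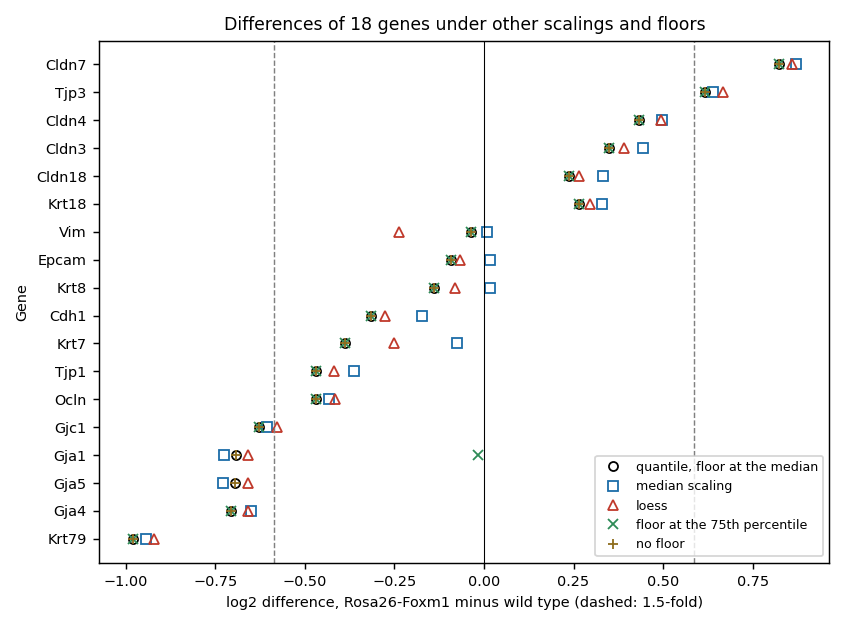
Log2 difference (Rosa26-Foxm1 minus wild type, horizontal axis) of 18 junction and filament genes under the setting used in the text (black circles) and under median scaling, loess, a floor at the 75th percentile and no floor, with dashed lines at 1.5-fold. Cldn7, Tjp3, Gja4 and Krt79 stay past 1.5-fold under each setting shown, Vim, Epcam and Krt8 lie on both sides of 0, and Gja1 moves to -0.02 with the floor at the 75th percentile.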

How the data were processed

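Per the labels' protocols, total RNA was extracted, treated with DNase and transcribed into digoxigenin-labelled cRNA for chemiluminescent arrays. The deposited intensities are linear, with a median of 1.00 on each array, so they had been scaled to about the array's median. How the authors corrected background and normalised is not stated in the labels used here. Gene names came from the platform annotation (14411 of 33012 with 1 gene, 247 with several), updated by gene ID to RefSeq symbols of GRCm38.p6 (13832 of 13840 genes matched). The deposited intensities were quantile normalised between arrays, floored at the 50th percentile and put on the log2 scale, and the brightest probe on average stood for each gene. The members, lists and naming rule were chosen with earlier results of these data known. By that rule, members past 1.5-fold, the ends of each family and fixed markers get full values, and other genes come from the ends of the fixed lists or past 1.5-fold. The 4 listed nerve and Schwann cell markers had no probe of their own in the table used here. The probe SD is the root mean square difference between 2 probes of a gene, divided by the square root of 2. Promoter windows of opposite strands that overlapped (1942 pairs) were checked to be reverse complements. The calculation was tested on simulated data. Python 3.11.15, numpy 2.4.6, pandas 2.3.3, statsmodels 0.14.6 and matplotlib 3.10.9 were used.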

Additional observations from a re-analysis of the deposited data

How the results depend on the processing

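Alternatives were median scaling, the deposited intensities, loess with a span of 0.3, no floor, a floor at the 25th or at the 75th percentile, the median over the probes of a gene and, chosen after seeing the data, only genes clear of the floor on each array. The partner and marker lists were also run under these after seeing the data. Scaling did not move the counts of genes past 1.5-fold or 2-fold, at 2 and 7 and at 0 and 0, and the median of all measured genes stayed between -0.06 and -0.03 under every scaling, although with loess Dsg2 (-0.59) stood among the 7 lower genes in place of Gjc1 (-0.58). The floor did move them. With the floor at the 25th percentile, 12 genes were at least 1.5-fold higher and 11 lower, beside backgrounds of 10.9% and 12.4% of all genes measured there. At that floor 8 were 2-fold higher and 2 lower, and the desmosomal median was -0.12. With no floor, 8 were at least 1.5-fold higher (background 9.61%), 5 were 2-fold higher and 1 was 2-fold lower. No 2-fold background was computed at these settings. With the floor at the 75th percentile, 3 were at least 1.5-fold lower (background 5.26%). The medians there were -0.14 for the members, -0.070 for desmosomal genes and -0.14 for keratins and vimentin. Over genes clear of the floor on each array, medians were -0.091 for the members and -0.66 for connexins. The genes added by lower or no floors were dim, such as Krt4 (2.56 with no floor), Gjb1 (2.25) and Cdh12 (-2.92), and intensities this low limit what can be said of them. Of 340 values of single members under an alternative, 321 moved by less than the probe SD and 19 by more, and none of the 9 genes past 1.5-fold changed sign. Many of these values could not move. Only 1 member had several probes, and a lower or no floor leaves a gene above the floor on both arrays unchanged. Median scaling and the deposited intensities were also almost the same setting. The count of 321 is therefore no measure of how stable the differences are. No paired analysis was possible because each genotype has 1 array.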
